A study of Homo sapiens with 19 samples.

Results

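ERRα binding in BT-474 cells treated with EGF was compared directly with ERRα binding in BT-474 cells treated with heregulin (HRG). BT-474 is a human breast cancer cell line with an amplified ERBB2 (HER2) gene. The cells of both groups were kept in serum-depleted medium for 24 h and then received 100 μM EGF or 100 μM HRG for 90 min. A group treated with vehicle was deprived of serum in the same way and is used only as a side value. For each condition, 1 ERRα ChIP library was sequenced, and the single BT-474 input library came from vehicle-treated cells and served all of them. The authors deposited 1 peak list per condition, so the lists hold no spread between cultures, no P value is given, and a difference between growth factors cannot be told apart from a difference between libraries. The series holds 19 samples and 8 peak lists with 264623 peaks in all, of which the EGF and HRG lists of BT-474 hold 68103.

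Members were chosen from the positions of the peaks alone. An EGF peak and an HRG peak with 1 bp or more in common were joined to a single site, chains of such peaks included, and the vehicle list was ignored. This gave 46498 sites, of which 21133 were shared (45.4%, 95% Wilson interval 45.0 to 45.9), 5320 had an EGF but no HRG peak (11.4%, 11.2 to 11.7) and 20045 had an HRG but no EGF peak (43.1%, 42.7 to 43.6). These are called shared, EGF-not-HRG and HRG-not-EGF sites. Intervals throughout cover counting error only. Each peak carries the score deposited by the authors, which MACS computes as the log10 of the P value times minus 10. A score of 50 is the cutoff, and 100 stands for a P value of 1e-10. Scores rest on library depth, which is unknown, so the percentile within its own list is given beside many of them.

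ERRα (ESRRA) is an orphan nuclear receptor that controls genes of mitochondrial energy metabolism and binds DNA at the ERR response element (ERRE), an extended half-site. EGF binds EGFR, which pairs with HER2, whereas HRG (the product of NRG1) binds HER3 or HER4, and HER3 signals through its pairing with HER2. Both routes activate the MAPK cascade, which induces the Fos and Jun proteins that form AP-1, a dimer with a binding element of its own.

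The sequences shown are those that carry the comparison, the ERRE in a site of each class and the AP-1 word in a shared and an HRG-not-EGF site. They were chosen by the order below but need not be the first such sites over the whole genome. Unshared sites were ordered by score, and shared sites by the lower of their ranks in the lists, with ties (many at a score of 3100) broken by width. Each is given 5′ to 3′ on hg19 (GRCh37), in lower case with the word in capitals and 60 bases to each side. The first pair comes from shared sites, in an intron of SHROOM3 (an actin-binding protein of apical constriction) at chr4:77619883-77620011, minus strand, and in intergenic DNA nearest to PRLR (the prolactin receptor) at chr5:35309562-35309688, plus strand. The next sequence comes from an EGF-not-HRG site in intergenic DNA nearest to HDGFL1, at chr6:22658239-22658367, plus strand. The last pair comes from HRG-not-EGF sites in intergenic DNA, nearest to CNTN3 (a neuronal adhesion protein) at chr3:74838312-74838440, minus strand, and to RPS6KA3 (the MAPK-activated kinase RSK2) at chrX:20532535-20532661, plus strand.
shared, ERRE, SHROOM3: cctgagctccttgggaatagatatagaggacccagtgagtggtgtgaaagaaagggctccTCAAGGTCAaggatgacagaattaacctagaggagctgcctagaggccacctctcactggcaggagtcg
shared, AP-1, PRLR: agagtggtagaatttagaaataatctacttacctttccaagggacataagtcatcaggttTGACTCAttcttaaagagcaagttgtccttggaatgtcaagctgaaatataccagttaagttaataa
EGF-not-HRG, ERRE, HDGFL1: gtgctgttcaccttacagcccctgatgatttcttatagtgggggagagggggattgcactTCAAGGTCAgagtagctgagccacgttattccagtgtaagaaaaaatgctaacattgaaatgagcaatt
HRG-not-EGF, ERRE, CNTN3: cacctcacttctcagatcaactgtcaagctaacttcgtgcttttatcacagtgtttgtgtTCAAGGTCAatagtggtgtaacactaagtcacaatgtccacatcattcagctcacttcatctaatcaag
HRG-not-EGF, AP-1, RPS6KA3: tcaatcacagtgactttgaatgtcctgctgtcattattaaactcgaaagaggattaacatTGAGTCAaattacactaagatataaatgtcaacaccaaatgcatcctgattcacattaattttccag

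The shared sites near SHROOM3 and PRLR scored 3100 on both growth factors, a value at which many peaks are tied. The EGF-not-HRG site near HDGFL1 scored 168.1 (percentile 61.2). The HRG-not-EGF site near CNTN3 scored 1267.4 (percentile 91.7) and that near RPS6KA3 1503.2 (percentile 93.1). Vehicle-treated cells had a peak at all of these sites except that near RPS6KA3.

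Strong EGF peaks were almost all contained in the HRG list, whereas a part of the strong HRG peaks had no EGF counterpart. Of the 26832 EGF peaks, 19.8% (19.4 to 20.3) had no HRG peak, and of the 41271 HRG peaks, 48.6% (48.1 to 49.1) had no EGF peak. Among EGF peaks of score 100 or more, 575 of 15279 (3.76%, 3.47 to 4.08) had no HRG peak of any score. Among HRG peaks of score 100 or more, 7115 of 25579 (27.8%, 27.3 to 28.4) had no EGF peak of any score. With the EGF list cut by score into 10 bins of equal size, the share without an HRG peak fell from 54.2% in the weakest bin to 16.7% in the fifth, 2.09% in the seventh and 0.0373% (1 peak) in the strongest. The corresponding shares of the HRG list were 87.4%, 62.1%, 31.1% and 0.388% (16 peaks), so that the HRG curve lay above the EGF curve in every bin. The HRG list was also the longer one and covered 91.5 Mb against 55.1 Mb. Cut to its highest-scoring peaks, as many as the EGF list held, it left 7710 EGF-not-HRG and 8028 HRG-not-EGF sites. Near equality of the unshared classes follows from the equal length itself, because nearly all shared sites join 1 peak of each list. It is therefore not a result about the growth factors.

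**Figure D1:**
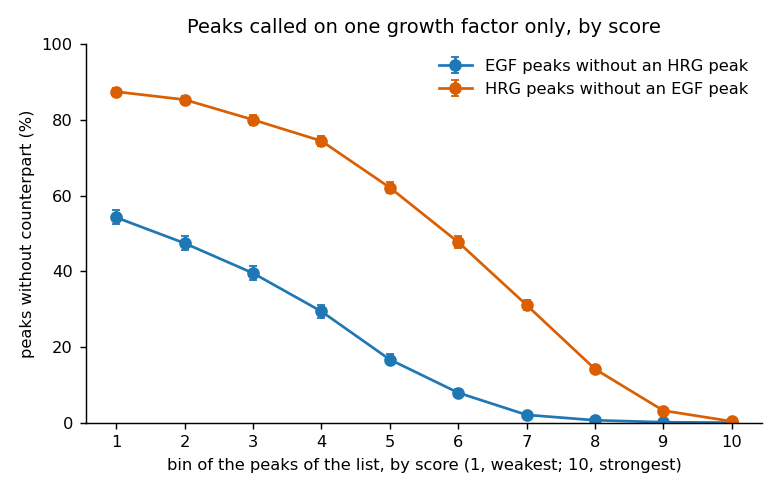
Share of peaks without an overlapping peak on the other growth factor (y axis, percent), in 10 bins of equal size ordered by score (x axis); bars are 95% Wilson intervals. Both curves fall with score, from 54.2% to 0.0373% for EGF peaks and from 87.4% to 0.388% for HRG peaks.

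At shared sites the peaks of the lists matched closely. Of the shared sites, 20712 (98.0%) joined exactly 1 EGF peak with 1 HRG peak, with a median distance of 97 bp between the centres. Across these sites the rank correlation of the scores was 0.80 (Spearman, a description across sites that share their libraries and input). The HRG peak was the wider in 84.1% (83.6 to 84.6) of them, by a median ratio of 1.15. It had the higher score in 83.8% (83.3 to 84.3) of them, so a higher HRG score at a named gene below is the usual case. Percentiles are not compared between the lists, which differ in length. EGF-not-HRG sites were weak, with a median score of 63.3 (percentile 19.4), and 89.2% of them scored under 100. HRG-not-EGF sites had a median score of 80.2 (percentile 28.7), and 64.5% of them scored under 100. An unshared site seldom lay beside a peak of the other list, since 4.57% (4.04 to 5.16) of EGF-not-HRG sites were within 1 kb of an HRG peak and 4.0% (3.73 to 4.28) of HRG-not-EGF sites were within 1 kb of an EGF peak.

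The EGF-not-HRG site of highest score, 3100 at percentile 98.9, was in an intron of CA10, a catalytically inactive carbonic anhydrase-related protein, at chr17:50020070-50027446. The next ones were in an intron of SDCCAG8 (a centrosomal protein, score 678.5), at the promoter of TRIQK (597.1), in intergenic DNA nearest to ACSF2 (an acyl-CoA synthetase, 449.0), in an intron of RIMS4 with KCNK15 (a potassium channel) as the nearest start (382.0), and in an intron of CSMD3 (373.7). None of these 6 held the ERRE or the AP-1 word in the 100 bp to either side of its centre, and the CSMD3 site held the half-site. The HRG-not-EGF site of highest score, 3009.7 at percentile 96.9, was in an intron of B4GALT5, a galactosyltransferase of lactosylceramide synthesis, at chr20:48321151-48329856. The next ones were in an intron of MIPOL1 (1887.2), nearest to RPS6KA3 (1503.2), nearest to DLX3 (a homeobox factor, 1496.1), nearest to NFATC2 (a calcineurin-dependent transcription factor, 1412.2) and nearest to CITED2 (a CBP/p300-binding regulator, 1397.1). Of these 6, the site near RPS6KA3 held an AP-1 word and the B4GALT5 site a half-site. Vehicle-treated cells had a peak at 2 of the EGF-not-HRG sites (CA10 and TRIQK) and at 4 of the HRG-not-EGF sites (all but those near RPS6KA3 and DLX3). Of these 12 sites, 6 were on chromosomes 17 or 20, which held 4.20% of all sites; the part of DNA copy number in this was not tested.

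Shared sites were ordered by the lower of their ranks in the lists, and since 534 EGF peaks and 1156 HRG peaks are tied at 3100, the first ones are the widest at that tie, not those of highest score in 1 list. They lay in an intron of SHROOM3 and in intergenic DNA nearest to PEX2 (a peroxisomal import factor), P2RY2 (a purinergic receptor) and FBXO33 (an F-box protein), and all had a vehicle peak. The SHROOM3 site, 18309 bp wide, held the ERRE, and the others held neither the half-site nor the AP-1 word at their centre.

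EGF-not-HRG sites were more remote from genes and richer in A and T than the other classes. Their median distance to the start of a protein-coding gene was 63446 bp, against 31390 bp at HRG-not-EGF sites and 25864 bp at shared sites. More than 100 kb separated the site from any such start in 41.9%, 28.5% and 24.7% of these classes. Centres within 1 kb of a start (promoters) made up 4.10% (3.6 to 4.66) of EGF-not-HRG, 7.18% (6.83 to 7.54) of HRG-not-EGF and 9.39% (9.01 to 9.79) of shared sites. Introns held 35.8%, 42.6% and 42.3%, exons 1.99%, 2.10% and 1.95%, and intergenic DNA 58.1%, 48.2% and 46.4% of the classes in the same order. The GC content of the window within 100 bp of the centre was 34.8% ± 8.14 (SD over the 5320 sites) at EGF-not-HRG, 39.0% ± 8.47 at HRG-not-EGF and 41.6% ± 8.69 at shared sites. In flanks 2 kb away it was 38.8%, 41.1% and 42.4%, so the drop from flank to centre was greatest at EGF-not-HRG sites. When all sites were split by GC content into 3 bins, the promoter shares of HRG-not-EGF and EGF-not-HRG sites differed in the highest bin by 0.41 percentage points (−2.30 to 2.79), against 3.08 (2.42 to 3.70) over all sites. With both lists held to a P value of 1e-10 the difference was 1.56 (0.01 to 2.87).

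**Figure D2:**
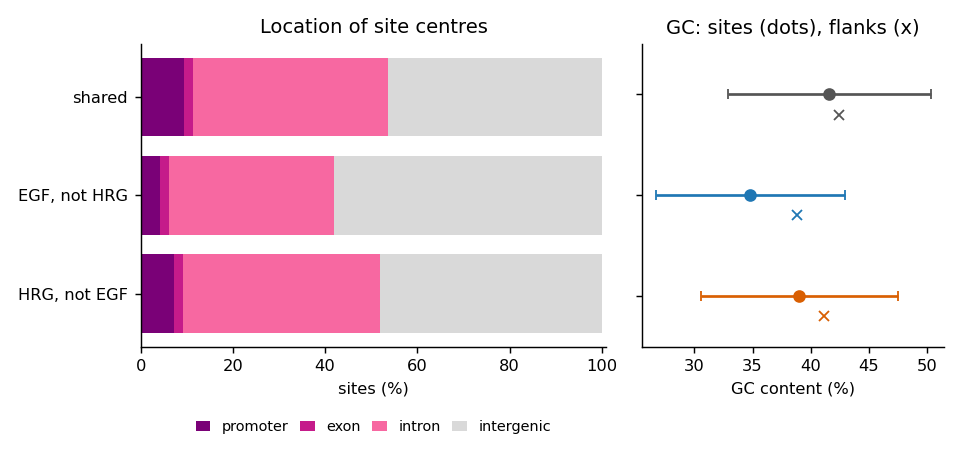
Left, share of site centres (x axis, percent) in promoters, exons, introns and intergenic DNA for each class; right, mean GC content within 100 bp of the centre (dots, bars are SD over sites) and of the flanks (crosses). EGF-not-HRG sites show the smallest promoter share (4.10%) and the lowest GC content (34.8%).

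The classes were not spread evenly over the genome. Across chromosomes, the EGF-not-HRG share of sites ran from 4.15% on chromosome 22 to 16.2% on chromosome 8, and the HRG-not-EGF share from 37.1% on chromosome 19 to 47.2% on chromosome 13. Among 263 windows of 10 Mb, the EGF-not-HRG share had a median of 10.0% and was highest at 33.7% (70 of 208 sites) at 20 to 30 Mb of chromosome 5. The HRG-not-EGF share had a median of 42.8% and was highest at 56.7% (34 of 60 sites) at 40 to 50 Mb of chromosome 8. In windows of 1 Mb, most EGF-not-HRG sites (14 each) were found at 88 to 89 Mb of chromosome 8, which holds CNBD1 and DCAF4L2, and at 112 to 113 Mb of chromosome 8, which holds no protein-coding gene. Most HRG-not-EGF sites (29, beside 17 shared and 1 EGF-not-HRG) were found at 79 to 80 Mb of chromosome 10, which holds KCNMA1 (a potassium channel), DLG5, POLR3A and RPS24. Next came 29 to 30 Mb of chromosome 8 with 27 HRG-not-EGF, 39 shared and 0 EGF-not-HRG sites, which holds DUSP4 (a MAPK phosphatase), KIF13B, LEPROTL1, MBOAT4 and SARAF. These windows were picked after their counts were seen.

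The ERRα elements marked shared sites most and EGF-not-HRG sites least. The ERRE, sought as TCAAGGTCA on both strands within 100 bp of the centre, was in 6.96% (6.62 to 7.31) of shared, 4.63% (4.35 to 4.93) of HRG-not-EGF and 2.69% (2.29 to 3.16) of EGF-not-HRG sites. The flanks held it in 0.265%, 0.297% and 0.254%, and 0.0995% of the windows of the same length at the starts of all protein-coding genes held it. The half-site AAGGTCA, which is contained in the ERRE, was in 23.4%, 16.3% and 9.98% of the classes, against 3.54%, 3.49% and 3.21% of flanks and 2.05% of all promoters. Both words thus stood above their flanks in every class, and the order of the classes was the same for both. In the highest of the 3 bins of GC content, the ERRE share of HRG-not-EGF sites (5.24%) was not above that of EGF-not-HRG sites (5.48%), with a difference of −0.24 percentage points (−2.16 to 1.28). With both lists held to a P value of 1e-10 the difference was 1.14 (−0.26 to 2.28), against 1.95 in the lists as deposited.

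The AP-1 word followed another order. Sought as TGACTCA or TGAGTCA, it was in 8.09% (7.72 to 8.47) of HRG-not-EGF, 6.77% (6.44 to 7.12) of shared and 3.55% (3.09 to 4.08) of EGF-not-HRG sites. The flanks held it in 3.14%, 3.18% and 2.91%, and all promoters in 2.41%. The share of EGF-not-HRG sites was therefore close to that of their flanks, and that of HRG-not-EGF sites exceeded it by 4.53 percentage points (3.89 to 5.14). The difference was present in each bin of GC content, with 5.47% against 2.98% in the lowest, 8.42% against 3.75% in the middle and 11.1% against 5.61% in the highest. It was also present at promoters (7.30%, 6.06 to 8.76, of 1439 HRG-not-EGF promoter sites against 2.75%, 1.27 to 5.87, of 218 EGF-not-HRG promoter sites) and elsewhere (8.15% against 3.59%). An AP-1 word and an ERRE in the same window were rare, at 0.483% of shared, 0.314% of HRG-not-EGF and 0.113% of EGF-not-HRG sites.

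The AP-1 share of HRG-not-EGF sites increased with the HRG score, from 6.10% (5.45 to 6.82) at scores of 50 to 60 to 9.50% (8.57 to 10.5) at 100 to 150 and 13.7% (11.8 to 15.8) at 250 or more. Their ERRE share was 3.83% (3.32 to 4.41), 5.72% (5.0 to 6.54) and 3.78% (2.83 to 5.04) in the same bands. At EGF-not-HRG sites the AP-1 share was 3.37% (2.70 to 4.20) at EGF scores of 50 to 60, 3.51% (2.17 to 5.62) at 100 to 150 and 4.95% (2.13 to 11.1) at 150 to 250. Shared sites had an AP-1 share of 7.49% (7.05 to 7.96) at HRG scores of 250 or more, below the 13.7% of HRG-not-EGF sites in that band. Ordered by the EGF score instead, shared sites had an AP-1 share of 9.08% (7.88 to 10.4) at 50 to 60 and 6.22% (5.69 to 6.79) at 250 or more.

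**Figure D3:**
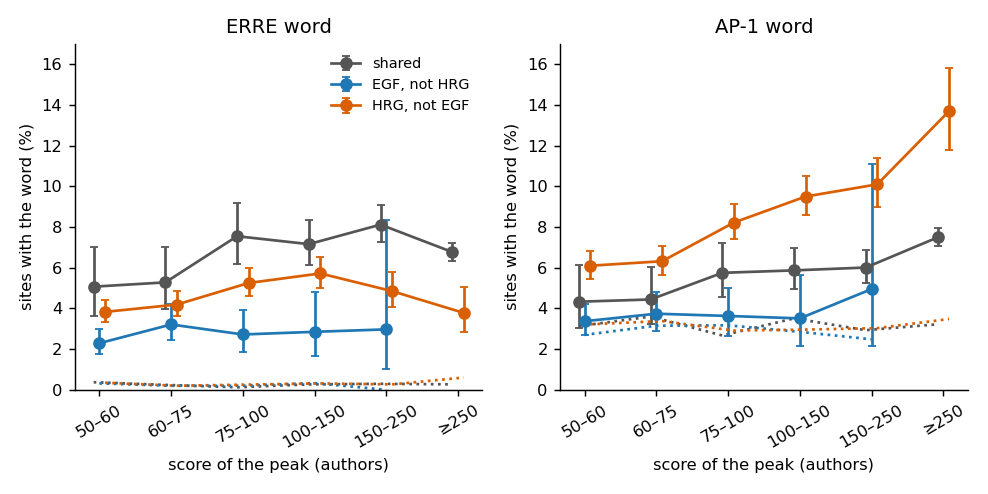
Share of sites with the ERRE (left) or AP-1 word (right) within 100 bp of the centre (y axis, percent), by band of the authors' score (x axis; HRG score for shared and HRG-not-EGF sites, EGF score for EGF-not-HRG sites); bars are 95% Wilson intervals and dotted lines the flanks. The AP-1 curve of HRG-not-EGF sites rises from 6.10% to 13.7%, and the band of 250 or more is not drawn for EGF-not-HRG sites, of which few scored so high.

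Both words gathered at the centres. In steps of 50 bp, the ERRE reached 21.06 words per 1000 shared sites at the centre and 12.57 per 1000 HRG-not-EGF sites, against 1.18 and 0.75 at 950 bp upstream. At EGF-not-HRG sites it reached 7.33 at the centre, against 0.56. The AP-1 word reached 22.60 per 1000 HRG-not-EGF sites and 19.07 per 1000 shared sites at the centre, against 7.83 and 9.13 at 950 bp upstream. At EGF-not-HRG sites it was 9.21 at the centre and 5.64 at 950 bp upstream, and the curve had no clear peak. Among all 8192 words of 7 letters (a word and its reverse complement taken as 1), the half-site AAGGTCA ranked 1 in shared and HRG-not-EGF sites by its share minus that of the flanks. In EGF-not-HRG sites it ranked 2, after TTTAAAA, which was in 23.4% of these sites and 16.4% of their flanks. The AP-1 word TGACTCA ranked 6 in HRG-not-EGF, 15 in shared and 1020 in EGF-not-HRG sites.

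**Figure D4:**
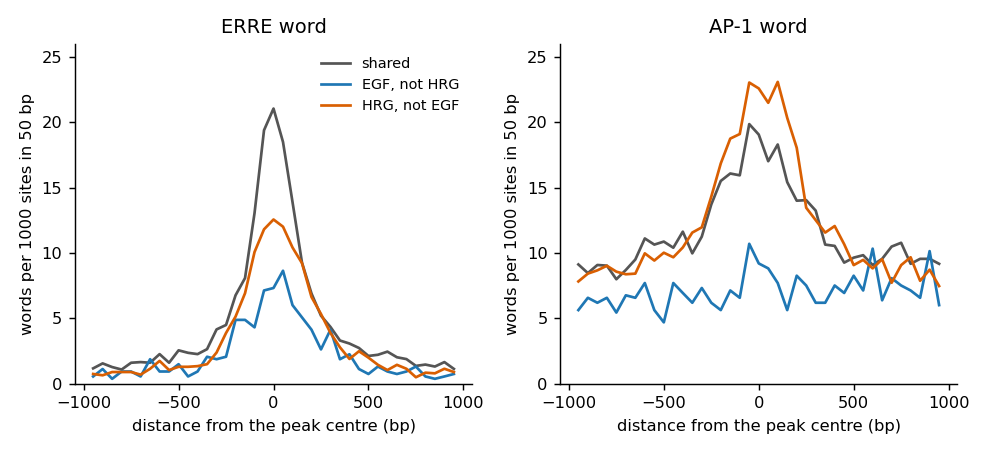
ERRE (left) and AP-1 words (right) per 1000 sites in steps of 50 bp (y axis) against the distance from the peak centre (x axis, bp), for the classes of sites. The ERRE is centred in all classes, and the AP-1 word reaches 22.60 at HRG-not-EGF and 9.21 at EGF-not-HRG centres.

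The forkhead word TGTTTAC was in 7.24% of shared, 6.58% of HRG-not-EGF and 5.23% of EGF-not-HRG sites (flanks 3.06%, 3.12% and 3.52%; all promoters 1.61%). The GATA word AGATAA was in 18.2%, 20% and 21.3% (flanks 14.1%, 15.1% and 16.5%; all promoters 4.57%), and the AP-2 palindrome GCCNNNGGC in 5.87%, 4.07% and 2.35% (flanks 3.76%, 3.02% and 2.08%; all promoters 20.8%). The palindromic oestrogen response element (ERE) was in 0.327%, 0.120% and 0.0376% (flanks 0.0166%, 0.00998% and 0%; all promoters 0.0348%). TEAD (ACATTCC) was in 4.15%, 4.01% and 2.93% (flanks 2.87%, 2.96% and 2.77%), and RUNX (TGTGGTT) in 4.30%, 4.10% and 4.53% (flanks 3.62%, 3.78% and 4.07%; all promoters 1.72% and 2.31%). NF-Y (CCAATCA) was in 1.98%, 1.94% and 1.88% (flanks 2.09%, 2.15% and 2.11%) and the E-box CACGTG in 1.68%, 1.62% and 0.865% (flanks 1.91%, 1.84% and 1.46%; all promoters 5.27% and 5.52%). The words of CRE (TGACGTCA), GRHL (AACCGGTT), ETS (CCGGAAGT), SP/KLF (GGGGCGGGG), EGR (GCGTGGGCG) and YY1 (AAGATGGCG) and those of CTCF, NRF1 and SRF were each in at most 0.412% of any class. All promoters held these words in 1.84%, 0.0597%, 4.23%, 14.9%, 0.617%, 2.17%, 0.0498%, 7.77% and 0.0149%. A word describes the sequence and does not show that its factor was bound.

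The classes also differed in lists that had no part in their choice. A vehicle peak of BT-474 was present at 90.8% (90.4 to 91.2) of shared, 35.1% (34.5 to 35.8) of HRG-not-EGF and 19.3% (18.2 to 20.3) of EGF-not-HRG sites. In SKBr3, another breast cancer line with amplified ERBB2, EGF peaks overlapped 53.6%, 26.1% and 9.12% of these classes and HRG peaks 48.2%, 23.1% and 8.61%. Sites of every class, HRG-not-EGF sites included, were thus found somewhat more often in the SKBr3 EGF list than in the SKBr3 HRG list. The list of lapatinib-resistant LRSKBr3 cells, which were kept in 2 μM lapatinib, overlapped 54.2%, 25.9% and 11.5%, and that of parental pSKBr3 cells 39.4%, 13.4% and 6.35%. Neither of these lists comes from cells labelled as treated with a growth factor or deprived of serum. In none of the other 6 lists was there a peak at 5.40% (5.11 to 5.72) of shared, 44.3% (43.6 to 45.0) of HRG-not-EGF and 70.9% (69.6 to 72.1) of EGF-not-HRG sites. At unshared sites of score 100 or more, vehicle peaks of BT-474 were present at 52.7% (51.5 to 53.8) of HRG-not-EGF and 37% (33.2 to 41.1) of EGF-not-HRG sites.

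The same comparison in SKBr3 gave the opposite order for both words. SKBr3 had 10831 EGF-not-HRG and 15658 HRG-not-EGF sites, and the AP-1 word was in 14.2% (13.5 to 14.9) and 7.22% (6.82 to 7.63) of them. The HRG-not-EGF minus EGF-not-HRG difference was −6.96 percentage points (−7.74 to −6.20) in SKBr3 and 4.53 in BT-474. For the ERRE it was −3.30 (−3.87 to −2.75) in SKBr3 and 1.95 (1.4 to 2.45) in BT-474. The SKBr3 lists pool 2 ChIP libraries each and have an input of their own per condition, unlike those of BT-474.

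For genes, a peak was assigned when its centre lay within 20 kb of any annotated start. Of the 20098 protein-coding genes, 42.4% had an EGF peak and 55.5% an HRG peak in range. Peaks of both lists were found at 39.9%, an HRG but no EGF peak at 15.6% (3131 genes), an EGF but no HRG peak at 2.53% (509 genes) and neither at 42.0%. Of the genes with peaks of both lists, 95.5% had a shared site in range, and 49.9% also had an HRG-not-EGF site. At promoters, 10.3% of genes had a shared site within 1 kb of a start, 7.47% an HRG-not-EGF site and 1.19% an EGF-not-HRG site. Gene lists were read against these percentages. With the HRG list cut to the length of the EGF list, the 20 kb range held peaks of both lists at 36.8% of genes, an HRG peak only at 7.22% (1452 genes) and an EGF peak only at 5.62% (1130 genes).

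Genes of energy metabolism mostly had peaks on both growth factors. Peaks of both lists were found at 60 of 77 oxidative phosphorylation genes (77.9%, against 39.9% of all genes), 21 of 25 TCA cycle genes (84.0%), 19 of 25 glycolysis genes (76.0%) and 18 of 28 fatty acid oxidation genes (64.3%). A shared site stood at the promoter of 54 of the 77 oxidative phosphorylation genes, against 10.3% of all genes. An HRG but no EGF peak was found at 6, 1, 1 and 4 genes of these lists, and an EGF but no HRG peak at 1, 0, 0 and 2. With lists of equal length the HRG-only counts were 3, 0, 1 and 2 (3.9%, 0%, 4% and 7.14%, against 7.22% of all genes). The EGF-only counts were then 5, 2, 0 and 3 (6.49%, 8%, 0% and 10.7%, against 5.62%). CS, which encodes citrate synthase and was picked as an example after its values were seen, scored 3138.9 on EGF and 3100 on HRG with the peak centre 537 and 640 bp from a start.

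The few metabolic genes with an unshared state had mostly weak peaks. HRG but no EGF peaks were centred 154 bp from a start of ATP5PB and 259 bp from a start of NDUFA8, subunits of ATP synthase and complex I, with scores of 273.1 (percentile 68.1) and 190.0 (58.7). Those in range of ATP5F1E (202.1), NDUFB11 (84.4) and NDUFB8 (60.6) and of DLD (57.0), a subunit of the 2-oxoacid dehydrogenases, ranked lower or lay farther away. ACAD9, an acyl-CoA dehydrogenase and complex I assembly factor, had an HRG peak with an AP-1 word 678 bp from a start (score 128.2, percentile 46.8). CPT1B (93.8), the muscle form of carnitine palmitoyltransferase, and the acyl-CoA synthetases ACSL4 (78.3) and ACSL6 (66.8) had weaker HRG peaks. EGF but no HRG peaks were in range of ACAA2 (155.0, percentile 58.7), a thiolase, CPT2 (63.0), the inner-membrane carnitine palmitoyltransferase, and NDUFV1 (54.6). In glycolysis, the lactate exporter gene SLC16A3 had an HRG peak 22 bp from a start (113.0, percentile 42.5). Of the genes named in this paragraph, only NDUFA8 and CPT1B had no vehicle peak in range. At the others, except ATP5F1E (113.2), the best vehicle peak scored higher, as at ATP5PB (325.1), ACAD9 (237.7) and DLD (193.2).

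Of 40 glutathione and antioxidant genes, 25 (62.5%, against 39.9% of all genes) had peaks of both lists, 4 an HRG peak only (10%, against 15.6%) and 1 an EGF peak only (2.5%, against 2.53%). The unshared counts were 2 and 2 with lists of equal length (5% each, against 7.22% and 5.62% of all genes). GPX1, a glutathione peroxidase, had 1 HRG peak with an ERRE (score 71.4, percentile 23.1), centred 18766 bp from a start, 1 vehicle peak (79.2) and no EGF peak. SRXN1 (100.5) and PRDX1 (93.1), of the peroxiredoxin system, and GSTO2 (61.1) had HRG peaks, and GSTA1 (59.0) an EGF peak. GSR, which encodes glutathione reductase, had peaks in both lists, of score 1059.7 (percentile 92.6) on EGF and 1676.3 (93.9) on HRG, beside 2192.9 (95.1) on vehicle.

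Of 12 genes of the ERR family and its coregulators, 6 had peaks of both lists (50%, against 39.9% of all genes), 3 an HRG peak only (25%, against 15.6%), 0 an EGF peak only and 3 neither. These unshared counts were 2 and 0 with lists of equal length (16.7% and 0%, against 7.22% and 5.62% of all genes). ESRRA had 3 EGF and 5 HRG peaks in range, the strongest scoring 3100 in each list and centred 228 and 283 bp from a start. PPARGC1A, which encodes the ERRα coactivator PGC-1α, had an HRG peak with an AP-1 word in an intron, 3374 bp from a start (163.9, percentile 54.4), and no EGF or vehicle peak. NCOA1, a nuclear receptor coactivator, had 4 HRG peaks, the best of 183.8 (percentile 57.7), and PROX1, a homeobox factor that represses ERRα targets, one of 75.9 (percentile 26.2). The best vehicle peaks in range of NCOA1 and PROX1 scored 224.9 and 139.1.

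Luminal lineage factors had peaks on both growth factors in 20 of 23 cases (87.0%, against 39.9% of all genes). In either unshared state there were 0, against 15.6% (HRG only) and 2.53% (EGF only) of all genes. With lists of equal length these counts were 18 for both (78.3%, against 36.8% of all genes) and 0 for HRG only (against 7.22%). For EGF only the count was 2 (8.70%, against 5.62%). Of 20 oestrogen-responsive genes, 13 had peaks of both lists (65%, against 39.9% of all genes) and 3 an HRG peak only (15%, against 15.6%). With lists of equal length, 1 had an HRG peak only (5%, against 7.22%) and 0 an EGF peak only (against 5.62%). The 3 were BCL2 (101.2), an inhibitor of apoptosis, TFF3 (66.2), a secreted trefoil peptide, and PDZK1 (63.3), a scaffold protein. TFF1, a trefoil peptide and oestrogen target, had a promoter site in both lists, scoring 543.0 (percentile 85.5) on EGF and 1947.7 (94.9) on HRG, beside 1041.1 (88.7) on vehicle. Of 12 markers of haematopoietic cells, which the cultures should lack, 4 had peaks of both lists (33.3%, against 39.9% of all genes). Among these, CD3E and CD3D were counted from the same peak of each list. ITGAM had an HRG peak only (96.6), which made 8.33% of the list against 15.6% of all genes.

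Among the 12 AP-1 subunit genes, 7 had peaks of both lists (58.3%, against 39.9% of all genes). An HRG peak only was found at 2 (16.7%, against 15.6%), an EGF peak only at 0 and neither at 3. With lists of equal length, 1 had an HRG peak only (8.33%, against 7.22%). BATF scored 3100 in both lists at its promoter, in a peak that held an ERRE. FOSL2 scored 1677.5 (percentile 95.5) on EGF and 3100 (98.5) on HRG at its promoter. ATF3 scored 830.3 (90.5) and 3100 (98.5) in an intron, 1451 and 1279 bp from a start. FOS scored 574.5 (86.3) and 697.1 (85.1) in intergenic DNA, 19028 and 18867 bp from its start. FOSL1 scored 378.8 (80.1) and 321.2 (71.8) at the promoter of another gene, 17655 and 17679 bp away. JDP2 scored 183.3 (63.8) on EGF and 599.1 (83.1) on HRG in an intron, 18093 and 19048 bp from a start. JUNB scored 129.2 (52.7) and 302.1 (70.5) at the promoter of another gene, 10382 and 10245 bp away. JUND (74.4, percentile 25.2) and BATF3 (96.0, 36.5) had HRG peaks only, 1768 and 19830 bp from a start. FOSB, JUN and BATF2 had a peak in neither list.

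Of the 15 ERBB receptor and ligand genes, 7 had peaks of both lists (46.7%, against 39.9% of all genes). An HRG peak only was found at 2 (13.3%, against 15.6%), an EGF peak only at 1 (6.67%, against 2.53%) and neither at 5. With lists of equal length, 2 had an HRG peak only (13.3%, against 7.22% of all genes). Another 2 then had an EGF peak only (13.3%, against 5.62%). ERBB3, the HRG receptor HER3, scored 2977.9 (percentile 97.8) on EGF and 3100 (98.5) on HRG in its intron. ERBB4, the other HRG receptor, scored 567.8 (86.1) and 1779.8 (94.3). Among EGF family ligands, EREG scored 1264.9 (93.9) and 3100 (98.5), BTC 56.2 (10.8) and 156.1 (52.8) at a peak with an AP-1 word, and EGF itself 166.6 (60.9) and 1708.4 (94.1). EPGN had different peaks in the lists, an EGF-not-HRG peak of 79.3 at its promoter and an HRG-not-EGF peak of 76.2 at 10131 bp. NRG3 scored 3100 in both lists. NRG1, the gene of HRG, had an intronic EGF peak (92.0, percentile 39.6), a vehicle peak (69.5) and no HRG peak. NRG2 had an HRG peak with an ERRE (131.0, percentile 47.5) and a vehicle peak with an ERRE (175.9), and NRG4 an HRG peak 166 bp from a start (126.6, percentile 46.3). EGFR, ERBB2, TGFA, HBEGF and AREG had no EGF or HRG peak in range.

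Of 40 ERBB signal transducer genes, 19 (47.5%, against 39.9% of all genes) had peaks of both lists, 6 (15%, against 15.6%) an HRG peak only and 1 (2.5%, against 2.53%) an EGF peak only. STAT3, a transcription factor activated by cytokine and growth factor receptors, had an intronic HRG peak with an AP-1 word (205.0, percentile 60.7). The kinase genes MAPK3 (102.0) and SRC (63.1) had weaker HRG peaks. Of 23 immediate early genes, 11 had peaks of both lists (47.8%, against 39.9% of all genes). An HRG peak only was found at 4 (17.4%, close to the 15.6% of all genes). The 4 were EGR2 (174.2, percentile 56.1), EGR4 (59.8, with an ERRE), IER2 (55.5) and ZFP36 (51.8). PHLDA1 alone had an EGF peak only (54.0, percentile 7.39), which made 4.35% of the list against 2.53% of all genes. Of 21 feedback inhibitor genes, which switch growth factor signalling off, 13 had peaks of both lists (61.9%, against 39.9% of all genes). Another 4 had an HRG peak only (19.0%, against 15.6%). With lists of equal length, the HRG-only counts of these lists were 2, 1 and 1 (5%, 4.35% and 4.76%, against 7.22% of all genes). The EGF-only counts were then 4, 1 and 2 (10%, 4.35% and 9.52%, against 5.62%). Of the feedback inhibitors, DUSP10, a MAPK phosphatase, had 3 HRG peaks, the best of 310.1 (percentile 71.1), and CBL (57.8), SPRED1 (56.9) and DUSP5 (55.8) had weak ones.

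Cell adhesion and motility genes had the highest share in the HRG-only state of the 15 lists. Of 32 genes, 17 had peaks of both lists (53.1%, against 39.9% of all genes) and 10 an HRG peak only (31.2%, against 15.6%). An EGF peak only was found at 1 (3.12%, against 2.53%) and neither at 4. The strongest of the 10 were ZEB1, a repressor of E-cadherin, with an intronic HRG peak of 358.2 (percentile 74.1), LAMC1 (279.3, percentile 68.6) and LAMA4 (251.9, 66.0), which encode laminin chains, MMP7 (140.8, 49.7), a matrix metalloproteinase, and ITGA2 (140.1, 49.5), an integrin chain. These 5 peaks held neither the ERRE nor the AP-1 word at their centre. VIM, the gene of the intermediate filament vimentin, had an EGF peak only (58.1, percentile 13.5), 396 bp from a start. With lists of equal length, 7 of the 32 genes (21.9%, against 7.22% of all genes) had an HRG peak only. Another 2 then had an EGF peak only (6.25%, against 5.62%). No test of the lists was made, and 1 gene moves a list of this size by several percentage points.

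**Figure D5:**
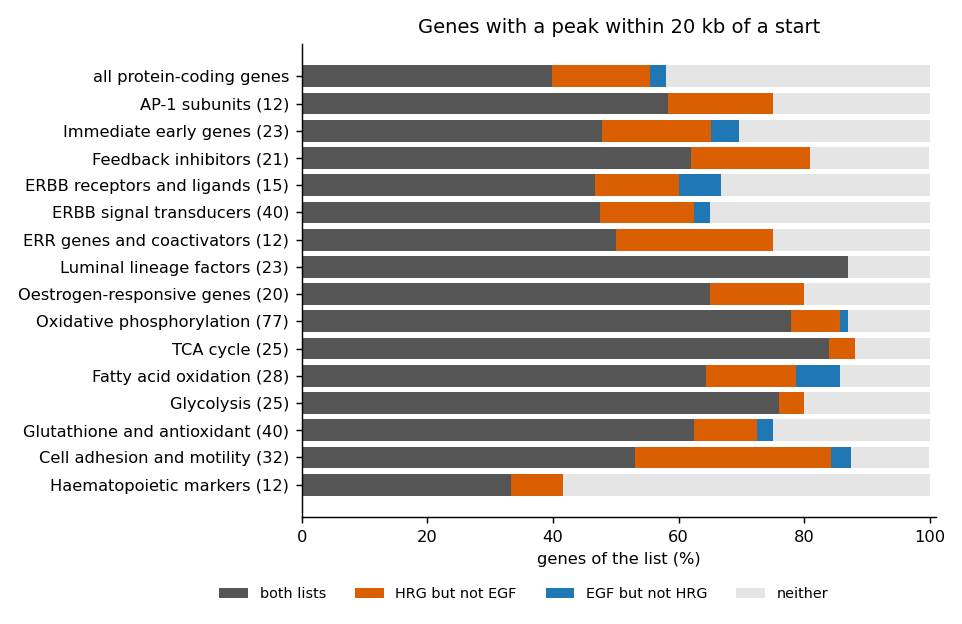
Share of the genes of each list (x axis, percent; number of genes in brackets) with a peak within 20 kb of a start in both lists, in the HRG list only, in the EGF list only or in neither; the top bar holds all protein-coding genes. The metabolic and luminal lists show long bars for both lists, and the adhesion list the longest HRG-only bar (31.2%).

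The strongest unshared promoter sites, picked after their values were seen, were these. HRG-not-EGF sites stood within 1 kb of starts of POMT2 (an O-mannosyltransferase, score 618.1), SPTBN4 (a spectrin, 570.1), CFTR (a chloride channel, 566.4), PPP1R10 (565.7) and TGFBI (an adhesion protein of the matrix, 523.4). The site at CFTR, at chr7:117290177-117293007, held an AP-1 word and the half-site. The site at GCNT3 (a mucin-type glycosyltransferase, 491.9), at chr15:59885884-59887674, held an ERRE and an AP-1 word. EGF-not-HRG promoter sites were weaker after the first, with TRIQK at 597.1, UBE2V1 (a ubiquitin-conjugating enzyme variant) at 337.2, DDX41 (an RNA helicase) at 180.6 and TTR (transthyretin) at 162.7, and none of the 10 strongest held the half-site or the AP-1 word. A vehicle peak was present at 9 of the 10 strongest HRG-not-EGF promoter sites, all but that at POMT2, and at 7 of the 10 strongest EGF-not-HRG ones.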

How the data were processed

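ERRα ChIP-seq peak lists of BT-474 cells on EGF and on HRG were compared. Per the labels, the authors aligned reads to hg19 (GRCh37), and their processing notes name BWA 0.5.9 and SAMtools 0.1.18. The authors called peaks with MACS (cutoff 1e-05 on the P value) against the input of vehicle-treated cells, 1 ChIP library per list. The only measure used is the score deposited by the authors (the log10 of the P value times minus 10). The lists hold no tag counts, so the depth is unknown.

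Peaks overlapping by at least 1 bp were merged. The centre of a shared site is that of its strongest HRG peak. Words were sought in GRCh37 within 100 bp of the centre and in equal windows 2 kb upstream and downstream. Starts were those of 20098 protein-coding genes (GENCODE lifted to GRCh37, chromosomes 1 to 22 and X), and a promoter window for words was centred on 1 start per gene. Promoter means within 1 kb of the start of any such gene, and gene range 20 kb. Shares have 95% Wilson intervals and differences of shares Newcombe intervals, and no test was made.

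Members and gene lists (15 lists) were chosen with earlier results of these data known. Named genes are the 6 sites of highest score in each unshared class and 4 shared sites, up to 5 genes per list and growth factor with a peak on that growth factor alone, all AP-1 subunits and ERBB receptors and ligands, and TFF1, ESRRA, GSR and GPX1; others are said to be picked afterwards. Some genes and 1 sequence that this rule names are not reported here. Alternatives covered the P threshold, list length, overlap, chromosome 17, promoter and gene distances, words and windows. Merging, word search and gene assignment were tested on simulated data: 6000 of 6000 sites received their class, all 617 planted words were found, as were all 330 genes placed in range. The tools were samtools 1.23.1, pysam 0.24.0 and, under Python 3.11.15, matplotlib 3.10.9, pandas 2.3.3, numpy 2.4.6 and scipy 1.17.1.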

Additional observations from a re-analysis of the deposited data

Results flagged for a closer look

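The share of sites with the AP-1 word and that with the ERRE were set apart because the cell lines moved in opposite directions under the same comparison. For AP-1, the HRG-not-EGF minus EGF-not-HRG difference was 4.53 percentage points in BT-474 and −6.96 in SKBr3. For the ERRE it was 1.95 in BT-474 and −3.30 in SKBr3. Each condition of each line has 1 list, so the difference between the lines was not tested.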

How the results depend on the processing

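Of 58 values under alternatives for 8 results, 21 stayed close to the main value, 36 moved and 1 reversed. A count was taken as close within 1.5 times the main count, and a difference of shares within the 95% interval of the main one, so that EGF-not-HRG sites count as close at 7710 with lists of equal length. The order of values below is shared, EGF-not-HRG and HRG-not-EGF sites, then the HRG-not-EGF minus EGF-not-HRG differences (percentage points) in promoter, ERRE and AP-1 share, which were 3.08, 1.95 and 4.53. With a P value of at most 1e-10 in both lists they were 13875, 1223 and 11662 sites, and 1.56, 1.14 and 6.66. With an HRG list as long as the EGF list, HRG-not-EGF sites numbered 8028, and the promoter and AP-1 differences were 2.34 and 6.27. With an overlap of 50% of both peaks the differences were 2.23, 1.26 and 3.45. With centres within 500 bp, EGF-not-HRG peaks numbered 8074 and the differences were 1.84, 1.11 and 3.10. Without chromosome 17 all 6 values stayed close. The promoter difference was 6.45 within 5 kb and 4.38 with all annotated genes. The ERRE and AP-1 differences were 1.02 and 2.25 within 50 bp and 4.0 and 13.56 in whole peaks. With the half-site the ERRE difference was 6.30, and with any base at its centre the AP-1 difference was 5.70. Alternatives added after seeing the data were unshared sites of score 100 or more (575 and 7115 sites, AP-1 6.75), the lowest of 3 bins of GC content (promoter 1.58, AP-1 2.49) and the highest (promoter 0.41, AP-1 5.47, and ERRE reversed at −0.24). Genes with an HRG but no EGF peak numbered 3131, and genes with an EGF but no HRG peak 509. Within 1 kb they numbered 1395 and 300, with the HRG list of equal length 1452 and 1130, and at a P value of 1e-10 the latter numbered 210. The cause of these shifts was not tested.

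No paired analysis was possible because each BT-474 list rests on 1 ChIP library and no result comes from a test, and no library was left out, since 1 is all there is. The depth of the libraries is unknown, so a peak absent from a list was not detected at that depth.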
